A study of Mus musculus with 9 samples.

Results

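The genes described here are 10 immediate early genes, Egr1, Egr2, Fos, Fosb, Fosl1, Jun, Junb, Ier2, Ier3 and Klf6, chosen by symbol from the 35896 genes to which the deposited transcripts could be assigned. Their levels were measured in poly-A RNA of 9 libraries from E14, mouse embryonic stem cells kept as a line in medium with serum, in a series that asks what the Arp2/3 complex contributes to differentiation. The 3 groups had 3 biological replicates each and were all labelled 72 h. Control cells with LIF2i stayed in the cytokine LIF, 1 µM PD0325901, an inhibitor of the kinase MEK, and 1 µM CHIR99021, which inhibits glycogen synthase kinase 3 beta. In control cells without LIF2i all of these were removed. CK666 cells had LIF2i removed and received 80 µM CK666, an inhibitor of the Arp2/3 complex, from a DMSO stock. The labels call both control groups untreated and do not mention DMSO in them, so drug and solvent cannot be told apart. All groups come from 1 cell line, no rescue or second inhibitor was analysed here, and each group was sampled at 1 time.

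Immediate early genes are transcribed from factors already present in the cell, without new protein synthesis, within minutes of a signal such as serum, a growth factor or a change in cell tension. A main route runs from receptors through RAS, MEK and ERK to ternary complex factors that bind DNA with serum response factor, and a parallel one runs from actin through MRTF proteins to the same factor. In pluripotent cells the MEK inhibitor of LIF2i blocks the first route, and ERK activity is known to be needed for exit from the naive state. Most of the encoded proteins are transcription factors: the zinc-finger EGR proteins, the FOS and JUN proteins that pair as AP-1, and KLF6, while IER3 modulates ERK signalling and survival.

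The bases upstream of 5 genes are shown first: Jun, Fosb, Junb and Ier3, which passed a test below, and Klf6, whose transcripts are described one by one. Promoter windows from RefSeq (GRCm38.p6) were used for 7 of the 10 genes and searched over the 250 bases before the RefSeq start. The search covered either strand, except that the first motif below was sought only on the strand of the gene. In the stretches shown, which end at the GENCODE or RefSeq start, whichever lies further upstream, capitals mark matches, all written 5′ to 3′ on the strand of the gene. The first motif is TGACNTCA, the long site of ATF and CREB proteins or its AP-1 variant. The next is TGACG, the core of such a site, and the last is CCAAT or its complement. The motifs may overlap, since the long site with G at the N contains the core. Elsewhere the TATAAA box and the CArG box, bound by serum response factor, were searched too. No window of the 7 held TGANTCA, the usual AP-1 letters, found in 6.75% of all windows.
Jun, chr4:95052223-95052472, minus strand: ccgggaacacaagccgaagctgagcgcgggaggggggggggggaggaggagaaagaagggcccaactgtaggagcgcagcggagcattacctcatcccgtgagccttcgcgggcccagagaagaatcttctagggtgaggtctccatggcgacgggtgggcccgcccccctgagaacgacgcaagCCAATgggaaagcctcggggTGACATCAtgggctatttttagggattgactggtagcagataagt
Fosb, chr7:19310052-19310295, minus strand: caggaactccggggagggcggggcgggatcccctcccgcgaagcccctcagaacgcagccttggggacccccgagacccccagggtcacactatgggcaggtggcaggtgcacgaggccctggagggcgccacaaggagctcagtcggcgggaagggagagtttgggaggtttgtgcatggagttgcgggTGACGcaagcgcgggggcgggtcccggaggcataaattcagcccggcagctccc
Junb, chr8:84978749-84978998, minus strand: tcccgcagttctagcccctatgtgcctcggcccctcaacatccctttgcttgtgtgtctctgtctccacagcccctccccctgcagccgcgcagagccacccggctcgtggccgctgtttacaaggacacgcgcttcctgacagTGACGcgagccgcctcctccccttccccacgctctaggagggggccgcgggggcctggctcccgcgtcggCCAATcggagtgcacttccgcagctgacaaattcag
Ier3, chr17:35821463-35821683, plus strand: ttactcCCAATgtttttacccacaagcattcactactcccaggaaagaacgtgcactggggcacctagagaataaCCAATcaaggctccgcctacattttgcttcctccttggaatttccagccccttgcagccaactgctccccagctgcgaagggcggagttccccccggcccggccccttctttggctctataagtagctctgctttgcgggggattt
Klf6, chr13:5861239-5861481, plus strand: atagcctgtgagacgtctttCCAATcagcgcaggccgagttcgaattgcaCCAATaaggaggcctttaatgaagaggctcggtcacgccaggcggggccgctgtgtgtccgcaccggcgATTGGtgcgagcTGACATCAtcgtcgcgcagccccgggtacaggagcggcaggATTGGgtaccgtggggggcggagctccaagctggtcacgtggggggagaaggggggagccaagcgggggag
On the strand of the gene, TGACNTCA stood upstream of Jun and Klf6, at -45 and -119 from the RefSeq start, and in 4.61% of all 32851 mouse windows. TGACG stood upstream of Fosb and Junb, at -60 and -106, and also of Fos, at -129 and -66, and Egr2; 17.8% of all windows hold it. Of the 7 genes Egr2 alone had a CArG box in its windows: 1 box lay in 3 overlapping start windows and another in a separate window. Among all windows 1.47% hold such a box. CCAAT, present in 33.8% of all windows, stood upstream of Jun, Junb, Klf6, Ier3 and Egr2, and TATAAA, in 12.4%, upstream of Fos. The Ier3 stretch held CCAAT at -244 and -175 and none of the other letters. A match describes letters only. Egr1, Fosl1 and Ier2 were not searched here.

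The 9 libraries held 16894327 to 22550952 estimated counts, at which 3 counts correspond to 0.142 to 0.182 CPM, TMM-scaled counts relative to library size. The replicate 1 libraries had fewer genes with a count above 0, 15642 to 17563, than the 18094 to 18660 of the others. Pluripotency markers summed to 3888 to 4590 CPM with LIF2i, 1724 to 1979 CPM without and 1869 to 2222 CPM with CK666, and all 7 were detected in each group; 4 fell and 1 rose after withdrawal. Of 8 fibroblast or feeder markers, of which 6 were tested, Col1a1, Col1a2, Dcn and Thy1 rose after withdrawal, and the sum over the 8 went from 6.85 to 9.58 CPM with LIF2i to 30.2 to 33.7 CPM without and 18.9 to 28.2 CPM with CK666; Lum stayed at or under 3 counts in every library. Mixl1, 1 of 2 tested streak and mesoderm markers, rose after withdrawal, from 0, 2 and 0 counts to 21, 8 and 20. The expression filter admitted Mixl1 only through withdrawn libraries. The neural marker Nes also rose after withdrawal, while Sox1 and Tubb3 fell. With CK666 Nes fell, and Sox1 and Pax6 had changes of 1.27 and 1.47 (edgeR adjusted p = 0.11 and 0.43). Of the markers of other cell types, Eomes and Col3a1 had uncalled changes of -1.31 and -1.14 with CK666 (edgeR adjusted p = 0.091 and 0.61). Those of Esrrb and Pdgfra, also uncalled, were 1.26 and 1.14 (edgeR adjusted p = 0.13 and 0.33). Endoderm markers summed to 5.24 to 15.0 CPM over all libraries, and Afp stayed at or under 3 counts. Of 10 heat and handling genes, Hspa1a rose and Hspb1, Hsp90aa1 and Atf4 fell after withdrawal, and Hsph1 and Dnajb1 fell with CK666. Uncalled with CK666 were Ddit3 and Atf4, with changes of 1.70 and 0.58 (edgeR adjusted p = 0.05004 and 0.068). Also uncalled there were Hspa8 and Hspa5, with changes of -1.05 and -0.72 (edgeR adjusted p = 0.058 and 0.055). Of these marker calls on withdrawal, those of Col1a1, Col1a2, Sox1, Tubb3, Hspa1a, Hspb1 and Hsp90aa1 were lost if the block was dropped, at edgeR adjusted p of 0.051 to 0.60. Marker genes with small changes were named after their values were seen. The part of such cells in the values below was not tested, and in bulk RNA fewer cells of a type and less RNA per cell cannot be told apart.

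Removal of LIF2i was read first, from control cells without against control cells with LIF2i. Egr1, Jun and Junb rose, Fosb was also called higher, Ier3 fell, and Fos, Fosl1, Ier2 and Klf6 did not pass the test, by edgeR's quasi-likelihood test with the replicate number as a block and Benjamini-Hochberg adjustment. The call covered 5 of 9 tested genes, 4 raised and 1 lowered, while 40.7% of all 14648 tested genes were called in this comparison, 21.1% raised and 19.7% lowered. Over all tested genes the median log2 change was 0.01. Fosb and Fosl1 passed the expression filter only through the group without LIF2i and had to be higher there to be tested, and Egr2 did not pass it. Of the 7 other tested members 4 were called, 3 raised and 1 lowered, and their median was 0.63. In the levels themselves, 4 of the 10 genes had CPM that did not overlap between the groups, all higher without LIF2i, namely Egr1 and Jun and the filter-bound Fosb and Fosl1, beside 21.5% of all tested genes (40.7% in either direction, 19.2% lower). Without the block 2 members were called, Egr1 and Jun, beside 3505 of all 14648 tested genes.

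Egr1 (chromosome 18, 34859823 to 34864984) encodes a zinc-finger factor that is a standard readout of ERK activity. It was at 0.197, 0.209 and 0.486 CPM with LIF2i in replicates 1 to 3, from 4, 4 and 8 counts, and at 6.90, 7.94 and 25.1 CPM without. The groups lie far apart, and replicate 3 without LIF2i is the highest. The log2 change was 5.37 (standard error, SE, 0.49, edgeR adjusted p = 5.0e-05), higher in 3 of 3 pairs, and it passed in all 18 alternatives. From the summed counts of 761 and 16, the ratio was 45.5 with a 95% interval of 27.8 to 79.9 (Clopper-Pearson, counting error only).

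Egr2 (chromosome 10, 67535475 to 67542188), a close relative of Egr1 known from hindbrain and Schwann cell development, was near the floor. Its counts were 1, 2 and 1 with LIF2i, and 10, 2 and 18 without. The ratio of the summed counts was 7.17, with a counting interval of 2.53 to 28.0. Replicate 2 without LIF2i stayed at the level of cells with LIF2i, and the groups overlapped. No fitted change is given because Egr2 did not pass the expression filter.

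Among the FOS genes, which cannot pair with themselves and need a JUN partner, Fosb was called, though the filter admitted it only through the group in which it is high. Fosb (chromosome 7, 19302696 to 19310051) had 0, 2 and 6 counts with LIF2i and 12, 20 and 36 without, and the groups did not overlap. Its log2 change was 3.03 (SE 0.91, edgeR adjusted p = 0.025), higher in 3 of 3 pairs. Adjusted p was 0.058 without the block, 0.15 without replicate 2 and 0.093 without replicate 3. Left out singly, the libraries without LIF2i of replicates 1, 2 and 3 gave 0.052, 0.073 and 0.14, and the library with LIF2i of replicate 2 gave 0.086, all by edgeR.

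Fosl1 (chromosome 19, 5447547 to 5455946), which encodes FRA1, had 0, 1 and 5 counts with LIF2i and 15, 10 and 32 without. These groups did not overlap either, but the log2 change of 3.12 (SE 1.17) missed the threshold (edgeR adjusted p = 0.058). It passed in DESeq2 (adjusted p = 0.043), in voom (0.041) and without the CK666 library of replicate 3 (0.029). Of its exonic bases, 57.2% lie opposite Ccdc85b, which was at 2.60 to 4.31 TPM with LIF2i and 6.81 to 7.40 TPM without, so the reads of Fosl1 are uncertain where strand was not used.

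Fos (chromosome 12, 85473890 to 85477273), the founding member of the class, did not pass the test. It was at 3.74, 4.97 and 4.31 CPM with LIF2i and at 2.22, 4.41 and 11.2 CPM without. The groups overlapped, with replicate 3 without LIF2i above and replicate 1 below every library with LIF2i. The log2 change was 0.24 (SE 0.64, edgeR adjusted p = 0.80), higher in 1 of 3 pairs, and it was -0.64 without that replicate 3 library.

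The JUN genes encode the partners that can bind DNA as pairs of themselves or with FOS. Jun (chromosome 4, 95049034 to 95052222), whose promoter above carries the full-length site, was at 8.01, 6.59 and 6.74 CPM with LIF2i and at 38.7, 40.2 and 62.3 CPM without. The groups were well apart and the 3 libraries with LIF2i were close together. The log2 change was 2.68 (SE 0.20, edgeR adjusted p = 1.7e-05), higher in 3 of 3 pairs, and it passed in all 18 alternatives. Jun shares 7.28% of its exonic bases with Junos on the other strand. No listed transcript was assigned to Junos, so its level is not known here.

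Junb (chromosome 8, 84974484 to 84978718) was at 11.2, 29.5 and 23.6 CPM with LIF2i and at 14.8, 33.2 and 78.8 CPM without. The groups overlapped: replicates 2 and 3 without LIF2i were above every library with LIF2i, replicate 2 by little, and replicate 1 was not. The log2 change of 0.78 (SE 0.27, edgeR adjusted p = 0.046) had one direction in 3 of 3 pairs, with differences of 0.39, 0.17 and 1.74. Without the replicate 3 library it was 0.39 (edgeR adjusted p = 0.24), without replicate 3 in all groups 0.28 (0.45), and without the replicate 3 library with LIF2i 0.42 (0.23). The edgeR adjusted p was 0.29 without the block, 0.087 without replicate 1 and 0.083 without the replicate 1 library with LIF2i. Leaving out a CK666 library of replicate 1, 2 or 3 gave 0.059, 0.064 and 0.069. Junb shares 7.52% of its exonic bases with Prdx2 on the other strand, which reached 285 to 368 TPM without LIF2i and 299 to 333 TPM with it.

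Ier3 (chromosome 17, 35821684 to 35822923) was the member that fell. It was at 4.18, 22.8 and 19.98 CPM with LIF2i and at 3.81, 7.32 and 9.61 CPM without. The groups overlapped, with replicate 1 with LIF2i below replicates 2 and 3 without. It fell by 1.03 on the log2 scale (SE 0.35, edgeR adjusted p = 0.043), lower in 3 of 3 pairs, and by 1.32 without replicate 1 (0.0014). The edgeR adjusted p was 0.17 without the block, 0.32 without replicate 2 and 0.21 without replicate 3. Left out singly, libraries without LIF2i of replicates 1, 2 and 3 gave 0.079, 0.19 and 0.11, and libraries with LIF2i of replicates 2 and 3 gave 0.25 and 0.17; the change was -0.62 without that of replicate 2. Without the CK666 library of replicate 2 or 3 it was 0.059 and 0.054.

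Ier2 (chromosome 8, 84661331 to 84662852), a small nuclear protein gene, and Klf6 (chromosome 13, 5861482 to 5870394), a zinc-finger factor gene, were high in every group. Ier2 was at 135, 87.4 and 126 CPM with LIF2i and at 86.7, 99.5 and 157 CPM without, fully overlapping. Its log2 change was -0.04 (SE 0.17, edgeR adjusted p = 0.89). Klf6 was at 156, 81.1 and 90.6 CPM with LIF2i and at 127, 154 and 229 CPM without. In replicate 1 Klf6 was higher with LIF2i, and in replicates 2 and 3 it was lower. The log2 change was 0.63 (SE 0.27, edgeR adjusted p = 0.10) with all libraries, 1.16 without replicate 1 (8.9e-05), 1.11 without the replicate 1 library with LIF2i (9.9e-05) and 0.95 without the replicate 1 library without LIF2i (0.031). It also passed in DESeq2 (0.041) and on log2(TPM + 1) in limma (0.029).

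**Figure D1:**
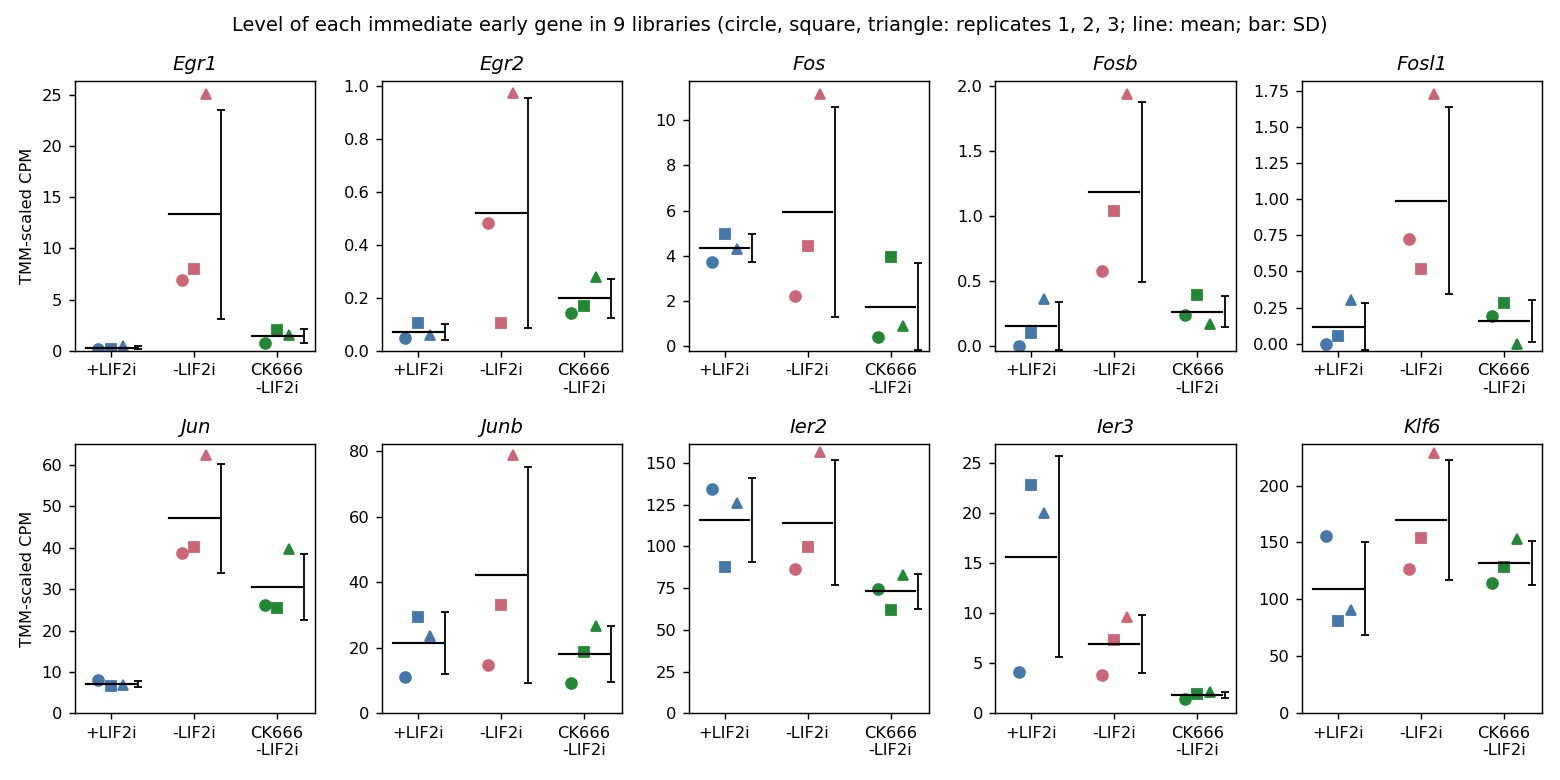
TMM-scaled CPM (vertical axis, linear, a separate scale per gene) of the 10 genes in the 3 groups, with replicates 1, 2 and 3 as circle, square and triangle, the mean as a line and the SD as a bar (n = 3). The triangle of the control group without LIF2i is the highest point of that group in all 10 panels.

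CK666 was then compared with control cells, both without LIF2i. Egr1 and Ier3 fell, and 7 of the 9 tested members did not pass. The share of all tested genes called was 2.05%, with 1.15% raised and 0.894% lowered. Fosb and Fosl1 were tested only because they were high in these controls, so their lower values with CK666 were fixed by the filter. The 7 other tested members had a negative fitted change and a lower value with CK666 in 3 of 3 pairs, as did 23.4% of all tested genes, with a median of -1.07 beside 0.02 over all tested genes. Of these 7, all but Klf6 had an unadjusted p under 0.05, as did 19.7% of all tested genes. Every CK666 library was below every control library for Egr1, Ier2 and Ier3, and for the filter-bound Fosb and Fosl1, against 7.69% of all tested genes (16.5% in either direction, 8.79% higher). Without the block no gene at all was called; 6 members and 8.54% of all tested genes had an unadjusted p under 0.05. The same held without replicate 3, with 4 members and 9.07% of genes. No member was called without the control or the CK666 library of replicate 2 or 3, left out singly, where 2 to 30 genes of all tested were; 4 to 6 members and 10.7% to 13.6% of genes then had an unadjusted p under 0.05.

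Egr1 was at 0.711, 2.04 and 1.51 CPM with CK666, against 6.90, 7.94 and 25.1 CPM in the controls. The lowest control exceeded the highest CK666 library. It fell by 3.07 on the log2 scale (SE 0.42, edgeR adjusted p = 0.019, and 0.27 if the block was dropped), from 761 to 78 summed counts. The change was -2.68 without the replicate 3 control (edgeR adjusted p = 0.16) and -2.56 without replicate 3 (0.30). The edgeR adjusted p was 0.056 without the replicate 2 control, and 0.052 and 0.067 without the CK666 library of replicate 2 or 3.

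Ier3, already lowered by withdrawal, was at 1.47, 1.92 and 2.12 CPM with CK666, against 3.81, 7.32 and 9.61 CPM. The CK666 libraries were close together and below all controls. Ier3 fell by 1.82 on the log2 scale (SE 0.38, edgeR adjusted p = 0.048, and 0.38 if the block was dropped), and by 2.08 without replicate 1 (0.0022). The edgeR adjusted p was 0.29 without replicate 2 and 0.44 without replicate 3. Left out singly, the controls of replicates 1, 2 and 3 gave 0.11, 0.17 and 0.24, the CK666 libraries of replicates 2 and 3 gave 0.26 and 0.20, and the library with LIF2i of replicate 3 gave 0.085.

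The AP-1 genes had negative changes that missed the threshold. Jun was at 26.2, 25.5 and 39.7 CPM with CK666, against 38.7, 40.2 and 62.3 CPM, and the differences within pairs were close, at -0.56, -0.66 and -0.65. Its log2 change was -0.63 (SE 0.18, edgeR adjusted p = 0.10). Junb was at 9.19, 18.7 and 26.5 CPM, against 14.8, 33.2 and 78.8 CPM, a log2 change of -1.07 (SE 0.27, edgeR adjusted p = 0.072). For Jun and Junb the groups overlapped, although each pair ran downward. DESeq2 called both, at adjusted p of 0.039 and 0.0048, and Jun also passed without replicate 1 (edgeR adjusted p = 0.033) and without its library with LIF2i alone (0.018).

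Fos was widely scattered under CK666, at 0.379, 3.96 and 0.894 CPM. Replicate 2 stayed near its control of 4.41 CPM while replicates 1 and 3 were far below theirs of 2.22 and 11.2 CPM. The log2 change was -1.92 (SE 0.69, edgeR adjusted p = 0.17; DESeq2 0.027). Fosb had 5, 7 and 3 counts and Fosl1 had 4, 5 and 0, all below the controls. The filter chose both on the controls, so these lower counts are a description only; neither passed (edgeR adjusted p of 0.25 and 0.30). Egr2 had 3, 3 and 5 counts, which overlap the controls.

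Ier2 was at 74.6, 61.8 and 82.8 CPM with CK666, below the lowest control of 86.7 CPM. Its log2 change of -0.63 (SE 0.17) missed the threshold (edgeR adjusted p = 0.090) and passed without replicate 1, at -0.82 (0.0028). It also passed in DESeq2 (0.022), in edgeR without the filter on low counts (0.049), and in edgeR without the replicate 1 library with LIF2i (0.016) or without LIF2i (0.043). Klf6 was at 114, 129 and 153 CPM, and its log2 change of -0.35 (SE 0.27, edgeR adjusted p = 0.52) was the smallest of the tested members; it was -0.44 without replicate 1 (0.049).

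**Figure D2:**
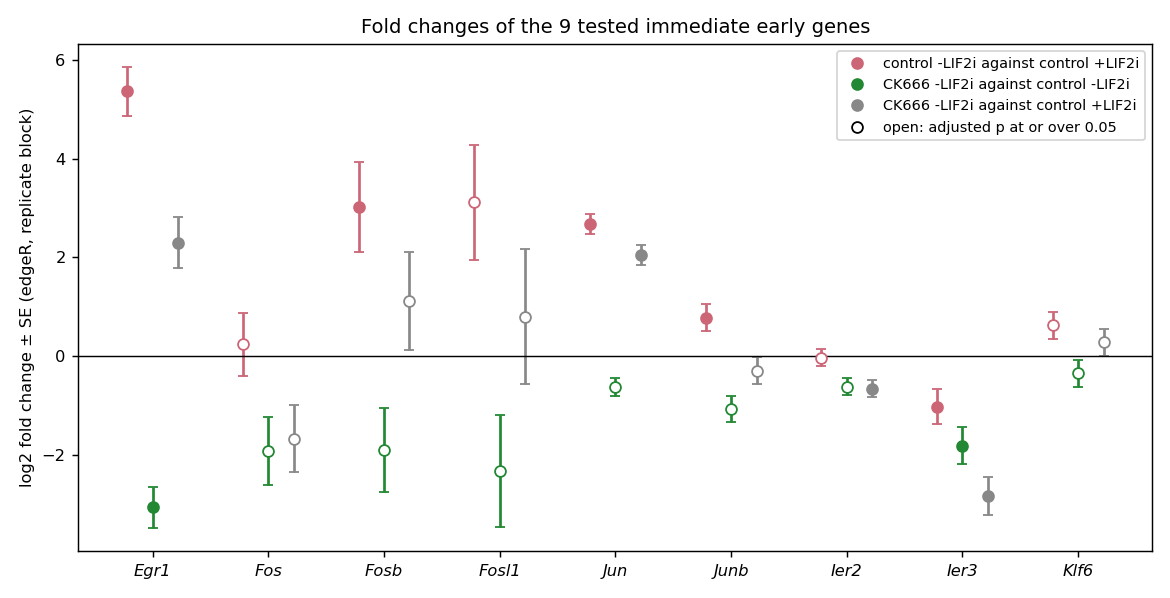
Log2 fold change (vertical axis) with its SE for the 9 tested genes in 3 comparisons, filled where the edgeR adjusted p was under 0.05. Withdrawal changes (red) run from 5.37 for Egr1 to -1.03 for Ier3, while all CK666 changes against control cells without LIF2i (green) lie below 0; those of Fosb and Fosl1 were fixed in direction by the expression filter.

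Set against cells with LIF2i, CK666 cells had higher Egr1 and Jun and lower Ier2 and Ier3. These were 4 of 9 tested members, beside 36.9% of all tested genes (19.8% raised and 17.1% lowered). Groups did not overlap for Egr1, Egr2 and Jun, which were higher, and for Ier2 and Ier3, which were lower, against 37.3% of all tested genes, 20.5% higher and 16.8% lower. Egr2 rested on 11 and 4 summed counts, a ratio of 2.71 with a counting interval of 0.804 to 11.7. Egr1 remained above self-renewing cells, by 2.30 on the log2 scale (SE 0.51, edgeR adjusted p = 0.0072), and Jun by 2.05 (SE 0.20, 7.5e-05), with no overlap in either gene. On log2(TPM + 1) Egr1 did not pass (limma adjusted p = 0.30). Ier3 fell by 2.84 (SE 0.39, edgeR adjusted p = 0.00055) and passed in all 18 alternatives. Ier2 fell by 0.66 (SE 0.17, edgeR adjusted p = 0.015), with every CK666 library below every library with LIF2i; the adjusted p was 0.099 without the block, 0.076 without replicate 3 and 0.072 without the CK666 library of replicate 3. Fos had a change of -1.68 (SE 0.68, edgeR adjusted p = 0.082) and of -2.94 without the CK666 library of replicate 2 (0.0082); it also passed without replicate 2 (0.013) and in DESeq2 (0.017). Klf6 was at 0.28 (SE 0.27, edgeR adjusted p = 0.46), and at 0.72 without replicate 1 (0.0017) and 0.76 without its library with LIF2i alone (0.0014). The 3 comparisons share libraries, so their values for one gene are not independent of each other.

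One library was high for the whole gene group. The control library without LIF2i of replicate 3 had the highest CPM of its group for 10 of the 10 members, while over all tested genes it was highest for 28.9%. Its level was 3.38 times the mean of replicates 1 and 2 for Egr1, 3.37 times for Fos, 3.28 times for Junb and 1.58 times for Jun. The median of this ratio was 2.59 over the members and 0.98 over all tested genes. Of 38 other primary response genes, 25 were also highest there. Heat shock and stress genes were highest there for 5 of 10, and that library had 1.76% mitochondrial counts, against 0.422% to 1.47% in the 8 others; their part was not tested. In replicate 1 the same group had the lowest level for 8 of the 10 members and for 41.9% of all tested genes. Without the replicate 3 control, Egr1 and Jun kept their call for withdrawal, at 4.92 and 2.56 on the log2 scale (edgeR adjusted p = 0.00082 and 0.00019), and no member was called for CK666, where 4 had an unadjusted p under 0.05, as did 11.9% of all genes.

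**Figure D3:**
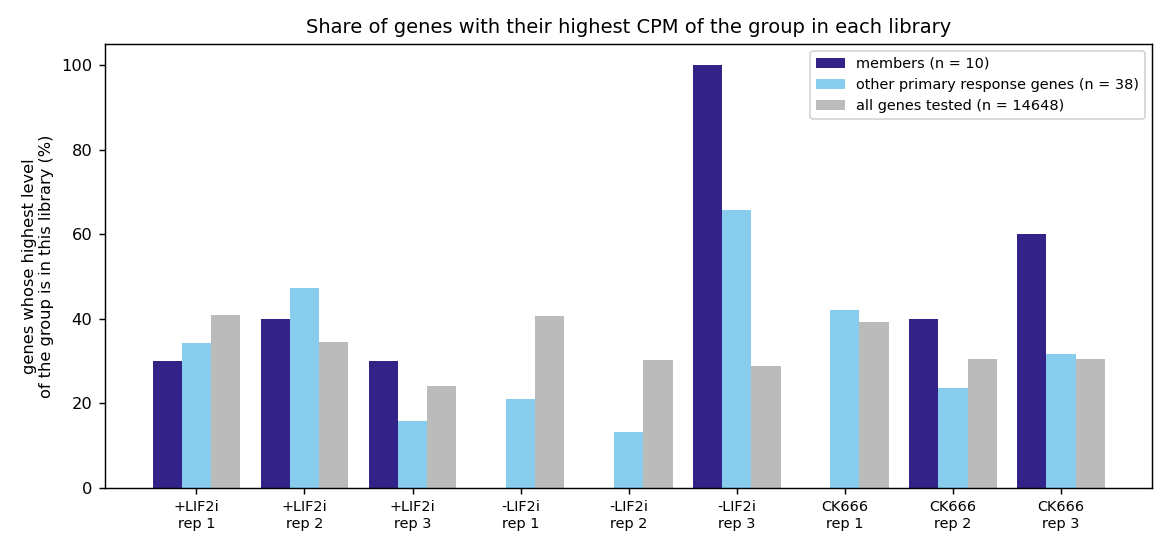
Share of genes (vertical axis, %) whose highest CPM of a group fell in each of its 3 libraries, for the 10 members, 38 other primary response genes and 14648 tested genes. The control library without LIF2i of replicate 3 holds all 10 members and 25 of the 38 other genes, against 28.9% of all genes.

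Levels per length, in the deposited TPM, show how the members rank. Ier2 and Klf6 were the most abundant in every group, at 128 ± 47.7 and 40.4 ± 21.5 TPM (SD, n = 3) with LIF2i, 124.5 ± 32.6 and 79.2 ± 20.6 TPM without, and 79.2 ± 14.9 and 60.7 ± 5.55 TPM with CK666. With LIF2i the order continued with Ier3 at 22.5 ± 12.6, Junb at 17.9 ± 5.32, Jun at 3.36 ± 1.02 and Fos at 3.15 ± 0.202 TPM. The ranges of Klf6, Ier3 and Junb overlapped from neighbour to neighbour, and so did those of Jun and Fos. Without LIF2i, Junb at 36.5 ± 26.8 and Jun at 22.2 ± 5.23 TPM stood above Ier3 at 10.8 ± 3.66, Egr1 at 5.52 ± 3.87 and Fos at 4.83 ± 3.34 TPM. With CK666, Junb and Jun at 15.7 ± 6.97 and 14.2 ± 3.59 TPM lay above Ier3 at 2.85 ± 0.353 TPM, whose range overlapped that of Fos at 1.65 ± 1.99 TPM, as did Egr1 at 0.576 ± 0.289 TPM. Fosl1, Fosb and Egr2 had means of at most 1.21 TPM in every group, with ranges that overlapped from neighbour to neighbour. Over 30 ratios of mean levels, 27 differed between TPM and CPM by less than the spread between pairs. The exceptions were those of Egr2 against cells with LIF2i in both withdrawn groups and of Fosl1 after withdrawal.

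AP-1 is a pair of proteins, so the make-up of each family was set side by side. Jund, a JUN gene that is not signal-induced to the same degree, made up most JUN family TPM in every library, 59.6% to 89.9%. Jun made up 2.67% ± 0.197 of it (SD, n = 3) with LIF2i, 11.8% ± 0.389 without, and 7.21% ± 1.41 with CK666. The ranges of this share did not overlap between the groups. Junb ranged from 8.73% to 28.5% without LIF2i alone. Jund had log2 changes of 0.32 (SE 0.14, edgeR adjusted p = 0.11) after withdrawal and 0.38 (SE 0.14, 0.17) with CK666, and it rose by 0.70 (SE 0.14, 0.0044) in CK666 cells against cells with LIF2i.

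FOS family transcripts were far scarcer, at a summed 3.68 to 5.19 TPM with LIF2i, 6.79 to 18.6 TPM without and 2.51 to 5.81 TPM with CK666. Fos itself was 56.8% to 85.7% of this sum with LIF2i and 28.0% to 45.6% without. Fosl2, which encodes FRA2, went from 12.2% to 23.2% with LIF2i to 36.8% to 50.7% without, and its log2 change was 2.55 (SE 0.46, edgeR adjusted p = 0.0021). With CK666 Fosl2 was 74.3% and 85.2% in replicates 1 and 3 and 20.9% in replicate 2, the library in which Fos stayed at 3.94 TPM. The level of Fosl2 itself was 4.92 ± 1.75 TPM (SD, n = 3) without LIF2i and 2.39 ± 1.51 TPM with CK666, a log2 change of -1.31 (SE 0.42, edgeR adjusted p = 0.13).

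**Figure D4:**
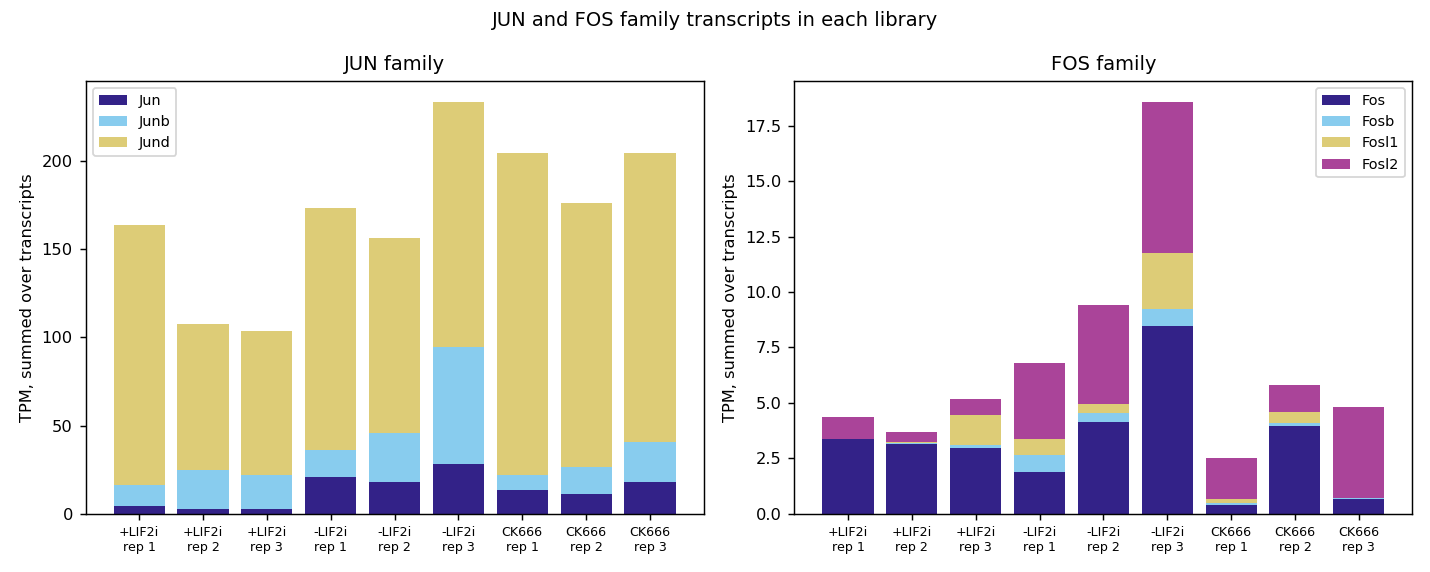
TPM (vertical axis, from 0) of JUN family and FOS family genes stacked for each of the 9 libraries, with a separate scale per family. Jund fills 59.6% to 89.9% of the JUN bars, and the tallest FOS bar, 18.6 TPM, is the control library without LIF2i of replicate 3.

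The deposited transcript values resolve Klf6 further. With LIF2i the protein-coding transcript Klf6-201 was 100%, 89.3% and 97.6% of Klf6 TPM, without LIF2i it was 71.1%, 69.4% and 69.3%, and with CK666 73.8%, 63.0% and 73.4%. The retained-intron transcript Klf6-202 was at 0, 2.83 and 0.721 TPM with LIF2i, at 13.7, 17.8 and 29.2 TPM without, and at 8.74, 20.2 and 11.5 TPM with CK666. Every withdrawn library was above every library with LIF2i. Klf6-203, annotated for nonsense-mediated decay, was listed at 0 in all 3 libraries with LIF2i and at 2.22 to 6.08 TPM in the 6 others. The coding transcript overlapped between groups, at 65.2, 23.6 and 28.9 TPM with LIF2i and 47.5, 47.1 and 71.3 TPM without. Reads shared among these transcripts were divided by estimate, and no error of that step was used here, so these are values without a test.

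**Figure D5:**
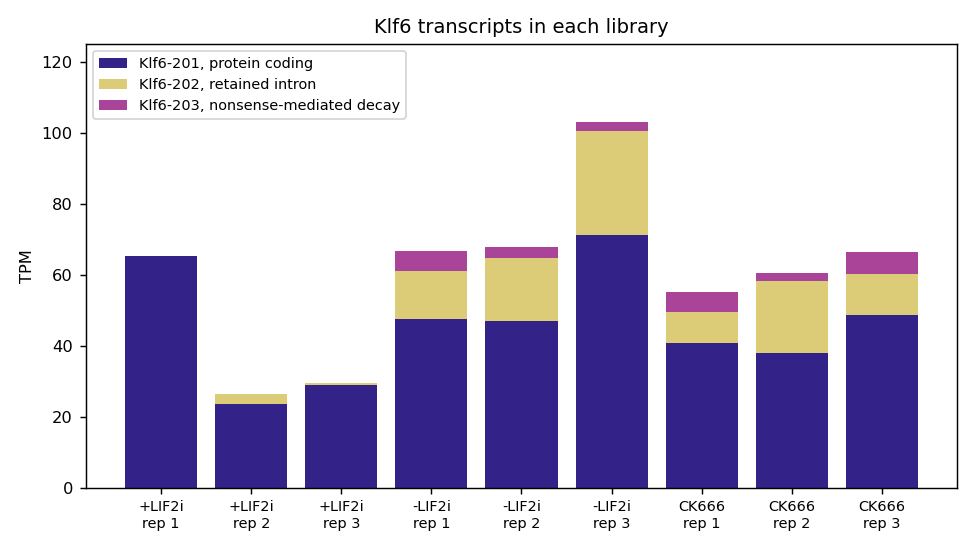
TPM (vertical axis, from 0) of the 3 Klf6 transcripts stacked for each library. The retained-intron and decay transcripts are at 0 to 2.83 TPM with LIF2i and the coding transcript forms 63.0% to 73.8% of the bars in the 6 withdrawn libraries.

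Other members gave little at this level. Egr1 was split between Egr1-201 and Egr1-202, and without LIF2i the first took 11.3%, 52.5% and 37.1%, a division too uneven to read. Fos was read as the coding Fos-201 alone with LIF2i, while the processed transcript Fos-203 took 34.8% in replicate 2 without LIF2i and 43.7% in replicate 2 with CK666. Jun, Junb, Ier2 and Ier3 have 1 transcript each in the deposited tables.

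The wider class of primary response genes, a list of 38 other genes of which 36 were tested, was counted next. By edgeR 18 were raised and 4 lowered for withdrawal, beside 21.1% and 19.7% of all tested genes, with medians of 0.74 and 0.01. For CK666 against cells with LIF2i 13 were raised and 6 lowered, beside 19.8% and 17.1% of all tested genes. Some of these calls were lost if the block was dropped. Among them were the raised Mcl1 and the lowered Nr4a1, Zfp36l1 and Gadd45b, at edgeR adjusted p of 0.15, 0.088, 0.086 and 0.62. Ccn1 and Ccn2, matricellular genes known as targets of YAP and of serum response factor, rose by 4.96 (SE 0.50) and 4.38 (SE 0.19) on the log2 scale on withdrawal, Myc by 4.15 (SE 0.36), and Trib1 and Irf1 both by 2.07 (SE 0.22 and 0.23); the highest of their edgeR adjusted p was 0.00019. Ier5 rose by 1.90 (SE 0.29), Zfp36, which encodes an mRNA decay factor, by 1.42 (SE 0.24) and Btg2 by 1.21 (SE 0.19); here the highest edgeR adjusted p was 0.0015. Mafk rose by 1.67 (SE 0.21) and Plk2 by 1.46 (SE 0.24), within the same bound, Rgs2 by 3.14 (SE 0.99, edgeR adjusted p = 0.031) and Nfkbiz by 1.51 (SE 0.41, 0.016). Nr4a2 rose by 2.63 (SE 0.89, edgeR adjusted p = 0.041) and Phlda1 by 1.61 (SE 0.46, 0.019), and Gadd45b fell by 1.09 (SE 0.37, 0.045). These 3 were not called if the block was dropped, at edgeR adjusted p of 0.099, 0.057 and 0.67. Klf10 and Cebpb, called for withdrawal at -0.63 and 0.66, also lost their call then, at edgeR adjusted p of 0.090 and 0.14. Sgk1 fell by 1.43 (SE 0.26, edgeR adjusted p = 0.0023). Under CK666 3 of the 36 were lowered, beside 0.894% of all tested genes, with a median of -0.33 over the list and 0.02 over all genes: Trib1 fell by 1.36 (SE 0.22), Sgk1 by 1.67 (SE 0.26) and Irf1 by 1.43 (SE 0.23), each at an edgeR adjusted p of 0.026, which became 0.33 to 0.37 if the block was dropped.

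Genes upstream of the members were counted in the same way. Of 20 kinase and transcription factor genes, Map2k2, Mapk3, Creb1 and Srf were raised and Map2k1 and Elk3 lowered on withdrawal, 6 of 20 beside 40.7% of all tested genes. Creb1 and Map2k1 were not called if the block was dropped, at edgeR adjusted p of 0.13 and 0.055. Under CK666, where 2.05% of all genes were called, Rps6ka2 rose by 0.51 on the log2 scale (SE 0.11, edgeR adjusted p = 0.04998), with overlapping groups. Map2k1, a MEK gene, had a change of -0.62 (SE 0.11, edgeR adjusted p = 0.030). Neither was called if the block was dropped, at edgeR adjusted p of 0.81 and 0.36. Genes of this list with an absolute change under 1 were named after their values were seen. Srf, which encodes serum response factor, rose by 2.10 (SE 0.14, edgeR adjusted p = 9.0e-06) on withdrawal and Elk3, a ternary complex factor gene, fell by 1.14 (SE 0.26, 0.0072). Among 7 tested corepressors and AP-1 partners 2 were raised and 2 lowered, beside the same 40.7%. Fosl2 rose by 2.55 (SE 0.46, edgeR adjusted p = 0.0021), Nab1 rose by 1.60 (SE 0.21, edgeR adjusted p = 0.00036), Nab2 fell by 1.70 (SE 0.40, 0.0086), and Jdp2, an AP-1 repressor gene, fell by 2.52 (SE 0.26, 8.6e-05). Under CK666 Jdp2 had a change of 0.99 (SE 0.25, edgeR adjusted p = 0.073). NAB1 and NAB2 are corepressors that bind EGR proteins.

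For 5 members the 3 most similar of 9498 well-expressed protein-coding genes were found by the root-mean-square difference of log2 CPM over the 9 libraries, after centring per gene and replicate number. For Jun they included Ddr1 and Cbr3, with differences of 0.13 and 0.19. Klf6 was closest to Rhob, itself a primary response gene of the list above, with 0.10, followed by Klhl9 and Zc3h12c with 0.13 and 0.15. Ier3 was closest to Tdgf1, Anxa2 and Mycn, with 0.30, 0.32 and 0.38. Anxa2 had log2 changes of -0.99 (SE 0.20) for withdrawal and -2.22 (SE 0.22) for CK666, beside -1.03 and -1.82 for Ier3. The nearest genes to Egr1 and Fos were less close by this measure: the nearest to Egr1 were Myc, Parp10 and Pou3f1, with 0.80, 0.90 and 0.93, and to Fos Glrx, Mat2a and Epha2, with 0.68 to 0.69.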

How the data were processed

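Per the file headers, the authors deposited 1 table per library of 119414 Ensembl transcripts with estimated counts, which are not normalised, and TPM, scaled within each library. The submitters' processing notes list kallisto, sleuth, FastQC, cutadapt 1.8.1 and the builds mm10 and GRCh38 without roles; the transcript release, the kallisto version and strand setting are not given in the sources used here. Transcripts were assigned to genes with GENCODE M21 (GRCm38): 116640 (97.7%) matched, and the others held 0.895% to 1.08% of a library's counts and were left out. Estimated counts and TPM were summed per gene, and the estimated counts were rounded.

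All 9 libraries entered 1 fit of edgeR 4.0.16 (R 4.3.3; robust quasi-likelihood, TMM, edgeR's expression filter, 14648 genes, 4 residual degrees of freedom), with the replicate number as a block. The pairing comes from the design text and the numbers in the titles; deviations from group means correlated between same-numbered libraries with a median r of 0.41 (0.30 to 0.65). Genes were called at a Benjamini-Hochberg adjusted p under 0.05, with SE derived from the test statistic. Ratios of summed low counts have Clopper-Pearson 95% intervals, which cover counting error only. Log2 CPM used a prior count of 2. Alternatives used DESeq2 1.42.0, limma 3.58.1 (voom, or log2(TPM + 1)), RLE factors, no filter, no block, and left-out libraries. The fit was tested on simulated data. P-values measure the spread between cultures the study calls biological replicates. In fits with the block, the shift shared by libraries of the same replicate number is first removed.

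The members and gene lists were chosen with earlier results of these data known. Named genes are the members, genes of the lists called for withdrawal or CK666 with a log2 change of 1 or more in size, and the 3 genes most like each of 5 members, of which 1 is not reported here. Jund, and the genes overlapping members, were named after their values were seen.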

Additional observations from a re-analysis of the deposited data

How the results depend on the processing

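Without the replicate block, 3505 genes and 2 members were called for withdrawal, 0 and 0 for CK666, and 2968 genes for CK666 against self-renewal; at an unadjusted p under 0.05 the CK666 fit without the block held 1251 genes and 6 members. For CK666, DESeq2 called 1137 genes and 6 members, edgeR without the filter 567 genes, voom 549 genes, and limma on log2(TPM + 1) 42 genes and 0 members, of which 7 had an unadjusted p under 0.05. Leaving out libraries gave 3100 to 6590 genes and 2 to 5 members for withdrawal, 0 to 1810 and 0 to 5 for CK666, and 2413 to 6131 and 3 to 5 for CK666 against self-renewal. The CK666 counts were 1810 genes without replicate 1, 1659 without its library with LIF2i, 8 without replicate 2 and 0 without replicate 3, with 1358 genes at an unadjusted p under 0.05 in the last. The cause was not tested.

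Over the members' single changes, 396 of the alternatives kept direction and call, 49 lost the call, 24 gained it and 11 turned direction. Fos for withdrawal turned to -0.52 without replicate 3, -0.64 without its control library, and -0.04 and -0.10 without the libraries with LIF2i of replicates 2 and 3; with libraries left out it ran up to 0.90. Ier2 for withdrawal turned to 0.0009 on log2(TPM + 1), 0.28 without replicate 1, and 0.18 and 0.23 without its libraries with and without LIF2i, with a lowest value of -0.22 without replicate 3. Fosl1 against self-renewal turned to -0.17 on log2(TPM + 1), -0.14 without replicate 2 and -0.12 without its CK666 library, with a highest value of 2.93 without replicate 3. On log2(TPM + 1), Egr1 lost its call for CK666 (limma adjusted p = 0.055) and against self-renewal (0.30), Ier3 for withdrawal (0.073) and CK666 (0.075), and Junb for withdrawal (0.055). Egr2 was tested only without the filter. Depth limits Egr2, Fosb and Fosl1, which had at most 18, 36 and 32 counts in a library.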
